A study of Homo sapiens with 18 samples.

Results

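The comparison asked whether the Menin inhibitor SNDX-50469 changed the same genes, in the same direction and by the same amount, in OCI-AML3 as in MOLM13 cells. For every gene the response of OCI-AML3 cells (treated against control, log2 scale) was set against the response of MOLM13 cells, and the difference, OCI-AML3 response minus MOLM13 response, was tested. A positive difference therefore means either a larger rise or a smaller fall in OCI-AML3 cells. The comparison uses 10 of the 18 RNA-seq libraries of the series. OCI-AML3 cells gave 3 libraries treated with 500 nM SNDX-50469 (labelled VTP) and 3 control libraries, and MOLM13 cells gave 2 treated and 2 control libraries, all at 16 h. A response could be compared for 13204 of the 58037 gene identifiers in the count table, those with enough reads in both lines.

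Both are established human acute myeloid leukemia (AML) lines. OCI-AML3 carries a mutant NPM1 (mtNPM1, NPM1c), which relocates nucleophosmin to the cytoplasm, and has unrearranged MLL1 (KMT2A). MOLM13 carries an MLL1 rearrangement that makes the MLL-AF9 fusion protein, together with an internal tandem duplication of FLT3. Each genotype is represented by 1 line, so a difference between the lines cannot be told apart from a difference between the genotypes. Replicates were biological repeats of a culture of the same line, and what a replicate number marks was not stated.

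Menin is a scaffold protein that holds MLL1 and MLL fusion proteins on the promoters of their targets. Inhibitors such as SNDX-50469, a relative of the clinical drug revumenib, occupy the pocket of Menin that MLL1 binds. In MLL1-rearranged and mtNPM1 AML this complex is known to keep HOXA genes and their co-factor MEIS1 expressed, which holds myeloid cells in a self-renewing state, and loss of the complex is known to let such cells mature.

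Total counts ranged from 53834368 to 55440351 in treated and from 49881047 to 59711884 in control OCI-AML3 libraries, and from 22678236 to 23684811 in treated and from 21447286 to 23065883 in control MOLM13 libraries. The depth therefore differed by line and not by treatment. The common biological coefficient of variation, the usual spread between replicates, was 2.99%. Control OCI-AML3 replicate 1 stood apart from replicates 2 and 3 (chi-square per degree of freedom over genes 6.19 and 7.03, against 2.55 between replicates 2 and 3 and 1.46 to 2.59 within the other groups). Of 10 myeloid markers, 9 exceeded a level of 1 CPM (counts scaled to the effective library size) and CSF2RA was at 0, and their summed level was 1626 to 1650 CPM in treated and 1651 to 1700 CPM in control OCI-AML3 cells, and 1803 to 1809 CPM in treated and 1833 to 1851 CPM in control MOLM13 cells. The 12 lymphoid markers summed to at most 2.84 CPM in OCI-AML3 and 10.4 CPM in MOLM13 libraries, with KLRD1 and NCR1 at 0. Their sum was 2.49 to 2.84 CPM in treated and 0.687 to 1.02 CPM in control OCI-AML3 cells, and 9.64 to 10.4 CPM in treated and 9.84 to 10.04 CPM in control MOLM13 cells. The 11 erythroid and megakaryocyte markers summed to 25.3 to 26.9 CPM in treated and 19.8 to 20.7 CPM in control OCI-AML3 cells, and to 38.02 to 38.4 CPM in treated and 34.0 to 36.5 CPM in control MOLM13 cells, with HBB and HBG1 at 0. The 12 epithelial and stromal markers stayed at or below 2.49 CPM in sum, with CDH1, COL3A1 and KRT19 at 0. The part of these markers in the results was not tested. Mitochondrial genes took 7.81% to 8.04% of counts in treated and 7.17% to 7.68% in control OCI-AML3 libraries, and 4.98% to 5.498% in treated and 4.36% to 4.83% in control MOLM13 libraries. In bulk RNA, fewer cells of a type and less RNA per cell cannot be told apart.

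The responses of the 2 lines overlapped only in part. The difference in response was called, at an adjusted p below 0.05 and a size of at least 0.32 on the log2 scale, for 1337 genes, 734 of them higher (5.56% of those tested) and 603 lower (4.57%) in the OCI-AML3 response. Within OCI-AML3 cells, SNDX-50469 raised 954 genes (7.23%) and lowered 497 (3.76%). Within MOLM13 cells it raised 1089 genes (8.25%) and lowered 794 (6.01%). Without control OCI-AML3 replicate 1, 1572 genes differed, 1405 responded in OCI-AML3 and 1969 in MOLM13 cells. With all 18 libraries of the series in the fit, 733 genes differed. With filters that did not require reads in both lines, the genes called in OCI-AML3 cells numbered 2194 or 2319. The median over all tested genes was 0.01 for the difference, 0.00 for OCI-AML3 and -0.01 for MOLM13, on the log2 scale.

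The split of called responses into higher and lower depended on the scaling. Genes that rose made up 65.7% of the calls in OCI-AML3 cells with the scaling used, 76.6% (1234 higher and 376 lower) with no scaling factors, and 51.9% (696 higher and 644 lower) with limma-voom and quantile normalization. In MOLM13 cells they made up 57.8%, against 75.7% (1503 higher and 482 lower) with no scaling factors and 68.1% (1299 higher and 609 lower) with upper-quartile factors. The corresponding share for the difference was 54.9%, and it lay between 47.8% and 56.2% under the other scalings.

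Among genes called for the difference, 586 responded by the call in MOLM13 cells alone, 326 of them up and 260 down. A further 342 responded in OCI-AML3 cells alone, 233 of them up and 109 down. In 78 genes the lines moved in opposite directions, 54 up in OCI-AML3 and down in MOLM13 cells and 24 the reverse. At this size limit, genes called in both lines in the same direction but by different amounts were fewer. They were 16 with the larger change in OCI-AML3 and 38 with the larger change in MOLM13 cells. With no fold limit these numbered 102 and 407, beside 392 with opposite directions. In 277 genes neither line's own response was called, and in 72 with no fold limit. With all 18 libraries in the fit, 284 genes responded in MOLM13 cells alone, 19 changed more in MOLM13 cells and 119 were called in neither. A response of similar size, meaning a call in both lines in the same direction and a 95% interval of the difference inside 1.5-fold, was found for 217 genes, 126 up and 91 down. With no fold limit, 1776 genes had a response of similar size. At the size limit used, another 135 genes called in both lines in the same direction had no called difference and an interval reaching beyond 1.5-fold. As a description across the 13204 genes, which are not independent replicates and share the same libraries within a line, the responses of the lines correlated with a Pearson r of 0.273 and a Spearman rho of 0.399.

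**Figure D1:**
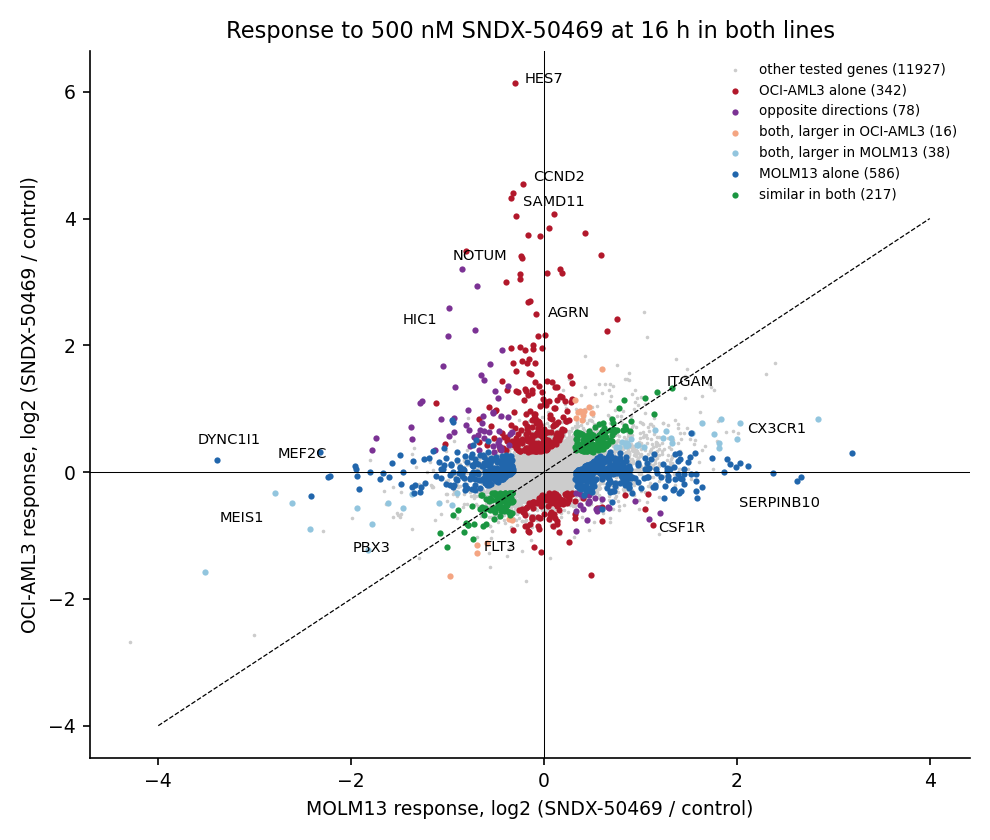
Response to 500 nM SNDX-50469 at 16 h for each tested gene, as log2 fold change in OCI-AML3 (y axis) against MOLM13 cells (x axis). Colours mark response patterns: OCI-AML3 alone, MOLM13 alone, opposite directions, the same direction with a larger change in either line, and similar responses. Similar responses were not called for a difference. Genes called for a difference with neither line's own response called are grey, like the remaining genes. Genes on the diagonal responded alike, and HES7, CCND2 and SAMD11 sit high above it with MOLM13 values near 0.

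Several genes that the MLL complex is known to control, MEIS1 and MEF2C above all, responded less in OCI-AML3 than in MOLM13 cells. Of the 12 MLL targets that the study itself followed, 0 rose and 5 fell in OCI-AML3 cells, and 0 rose and 10 fell in MOLM13 cells. The difference was called for 7 of them, MEIS1, MEF2C, JMJD1C, PBX3, BMI1, SENP6 and HOXA9, each of them higher in the OCI-AML3 response. The median of the 12 was 0.47 for the difference, -0.25 in OCI-AML3 and -0.66 in MOLM13 cells. For this and each later list, the share over all tested genes was 5.56% called higher and 4.57% called lower for the difference. The study chose this list on these samples, so the direction within each line is not independent evidence. The number called higher was 7 in each of 20 other settings of the analysis (other scalings, filters and tests, and fits that left out a library, all at the same size limit).

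MEIS1, the homeodomain co-factor of HOXA9 (chromosome 2, 66435125 to 66573869, GRCh38), was at 25.9, 26.2 and 26.7 CPM in treated and 37.7, 35.8 and 37.0 CPM in control OCI-AML3 cells. In MOLM13 cells it was at 6.74 and 6.42 CPM in treated and 37.7 and 42.7 CPM in control cells. The control levels of the lines overlapped, while the treated levels did not. The log2 fold change was -0.49 ± 0.04 (SE) in OCI-AML3 and -2.61 ± 0.08 in MOLM13 cells, a difference of 2.12 ± 0.09 (95% interval 1.92 to 2.32, edgeR adjusted p = 4.5e-10).

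MEF2C, a MADS-box transcription factor of progenitors and myeloid cells (chromosome 5, 88717117 to 88904105), was at 104, 104 and 107 CPM in treated and 94.3, 101 and 98.2 CPM in control OCI-AML3 cells. It was at 43.5 and 43.5 CPM in treated and 167 and 171 CPM in control MOLM13 cells. Treated OCI-AML3 cells lay above their controls and treated MOLM13 cells far below theirs. The log2 fold change in OCI-AML3 cells was 0.10 ± 0.03, which was not called, and in MOLM13 cells it was -1.96 ± 0.04. The difference of 2.06 ± 0.05 had an adjusted p of 5.4e-13.

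PBX3, the other homeodomain partner of the HOXA9 complex, fell in both lines. It was at 17.5, 16.7 and 17.5 CPM in treated and 29.9, 30.5 and 30.2 CPM in control OCI-AML3 cells, and at 27.3 and 28.1 CPM in treated and 95.8 and 95.4 CPM in control MOLM13 cells. Its difference of 0.98 ± 0.06 had an adjusted p of 1.3e-08. JMJD1C, a protein of the JmjC demethylase family, was at 56.6, 58.6 and 59.7 CPM in treated and 62.4, 68.2 and 69.7 CPM in control OCI-AML3 cells, against 60.4 and 55.1 CPM in treated and 143 and 147 CPM in control MOLM13 cells. Its log2 change of -0.20 ± 0.04 in OCI-AML3 cells was under the limit for a call, and its difference was 1.14 ± 0.07 (adjusted p = 1.9e-08). BMI1, a subunit of Polycomb repressive complex PRC1, had log2 changes of 0.11 in OCI-AML3 and -0.59 in MOLM13 cells (difference 0.70 ± 0.10, adjusted p = 0.00017).

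CDK6, LAMP5 and FLT3 fell in both lines and were not called for a difference. CDK6, the cyclin-dependent kinase of the G1 phase, had log2 changes of -0.43 in OCI-AML3 and -0.48 in MOLM13 cells, with a 95% interval of the difference from -0.10 to 0.20. LAMP5, a lysosome-associated membrane protein, changed by -0.84 in OCI-AML3 and -0.79 in MOLM13 cells, with an interval of -0.12 to 0.02. FLT3, the receptor tyrosine kinase, was at 13.7, 14.0 and 14.1 CPM in treated and 27.9, 29.2 and 29.4 CPM in control OCI-AML3 cells, and at 165 and 164 CPM in treated and 266 and 280 CPM in control MOLM13 cells. Every MOLM13 library lay far above every OCI-AML3 library. Its log2 change was -1.05 in OCI-AML3 and -0.73 in MOLM13 cells, and the difference of -0.32 ± 0.05 (adjusted p = 0.0005) missed the size limit of 0.32 by a small margin. FLT3 was called lower in the OCI-AML3 response under 7 of the other settings, among them the fits without treated OCI-AML3 replicate 3 (-0.33), control OCI-AML3 replicate 1 (-0.33), treated MOLM13 replicate 2 (-0.32) or control MOLM13 replicate 2 (-0.36).

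Genes beside JMJD1C and SENP6 also differed. REEP3, which overlaps one edge of JMJD1C on chromosome 10, fell by 0.57 in OCI-AML3 and by 1.46 in MOLM13 cells (log2, difference 0.89 ± 0.07, adjusted p = 2.1e-07). REEP3 was chosen after its values were seen, and reads of overlapping genes cannot be told apart without strand. MYO6, a myosin motor next to SENP6 on chromosome 6, was at 20.1, 21.2 and 21.6 CPM in treated and 24.7, 26.7 and 27.4 CPM in control OCI-AML3 cells. It was at 0.688 and 0.924 CPM in treated and 5.55 and 5.67 CPM in control MOLM13 cells. It fell in both lines, with a difference of 2.46 ± 0.21 (adjusted p = 7.2e-07), larger than that of SENP6, a SUMO protease (0.49 ± 0.06).

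**Figure D2:**
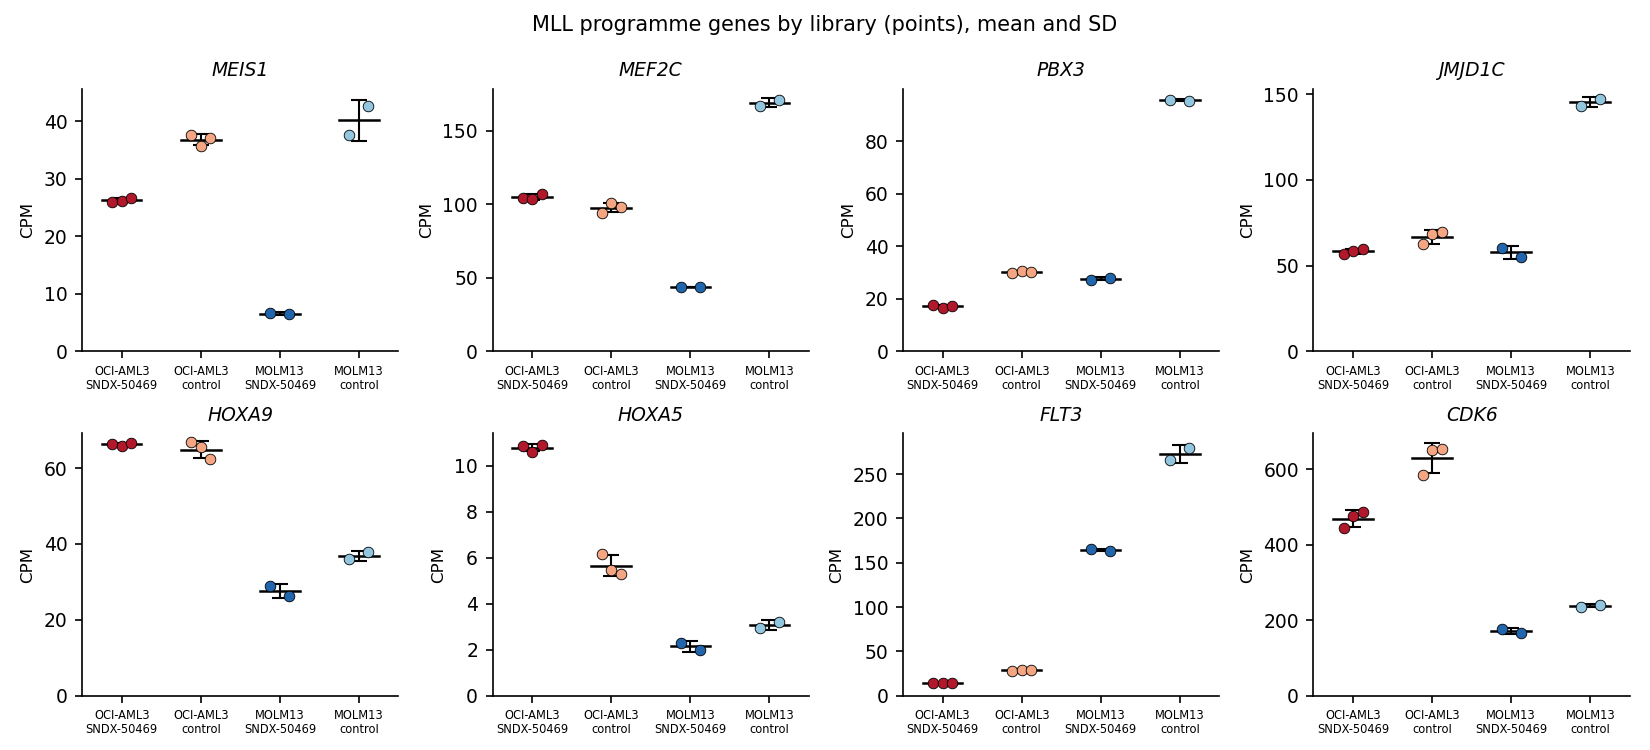
Levels in CPM (y axis, from 0) of MLL programme genes by library, as points with the group mean and SD, for treated and control OCI-AML3 cells (n = 3 each) and treated and control MOLM13 cells (n = 2 each). MEIS1 and MEF2C dropped in treated MOLM13 cells well below the treated OCI-AML3 cells.

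Other genes known as targets of MLL fusion proteins did not share one direction of difference. Of 17 tested, 0 rose and 7 fell in OCI-AML3, 0 rose and 10 fell in MOLM13 cells, and the difference was called higher for 4 and lower for 3. The median was 0.15 for the difference, -0.29 in OCI-AML3 and -0.46 in MOLM13 cells. DACH1, a nuclear co-repressor, was at 0.121 to 0.337 CPM in treated and 0.136 to 0.238 CPM in control OCI-AML3 cells, and at 28.6 and 26.1 CPM in treated and 133 and 141 CPM in control MOLM13 cells, so its fall of 2.32 (log2) was measured well in MOLM13 cells alone (difference 2.63 ± 0.40, adjusted p = 0.00027). CPEB2, which regulates translation through polyadenylation, fell in both lines, by 1.22 in OCI-AML3 and by 1.83 in MOLM13 cells. Its difference was not called with all 18 libraries in the fit (0.61). The other 2 called higher were SKIDA1 (1.17 ± 0.26) and SORT1, the sorting receptor sortilin (0.47 ± 0.15), which lost its call under 12 of the other settings, among them 7 fits without a single library (0.35 to 0.49).

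The 3 genes with the larger fall in OCI-AML3 cells were CDKN2C, RUNX2 and IGF2BP2. CDKN2C, the CDK4 and CDK6 inhibitor p18, was at 85, 83.1 and 81.4 CPM in treated and 279, 256 and 243 CPM in control OCI-AML3 cells. It was at 49.7 and 49.8 CPM in treated and 95.3 and 100 CPM in control MOLM13 cells. No treated library reached a control library in either line, and the difference was -0.67 ± 0.07 (adjusted p = 1.3e-05). RUNX2, the RUNX family factor of bone formation, fell by 0.86 in OCI-AML3 cells, while the MOLM13 value of -0.20 was not called (difference -0.65 ± 0.09, adjusted p = 8.2e-05). IGF2BP2, an RNA-binding protein, fell by 1.15 in OCI-AML3 and by 0.70 in MOLM13 cells (difference -0.45 ± 0.04).

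Within the HOXA cluster on chromosome 7 the lines differed in direction. Of 9 genes tested, 5 rose and 0 fell in OCI-AML3 cells, and 1 rose and 4 fell in MOLM13 cells. The difference was called higher for HOXA7, HOXA5, HOXA3, HOXA11 and HOXA9 and lower for HOXA13, and across the other settings 4 to 6 were called higher. The median of the 9 was 0.79 for the difference, 0.55 in OCI-AML3 and -0.41 in MOLM13 cells.

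HOXA5 was at 10.9, 10.6 and 10.9 CPM in treated and 6.17, 5.47 and 5.31 CPM in control OCI-AML3 cells, and at 2.29 and 1.98 CPM in treated and 2.92 and 3.22 CPM in control MOLM13 cells. It rose by 0.94 ± 0.07 in OCI-AML3 and fell by 0.53 in MOLM13 cells, with a difference of 1.46 ± 0.19 (adjusted p = 6.3e-05). HOXA7 had the same pattern at a low level, 0.621, 0.669 and 0.710 CPM in treated and 0.535, 0.311 and 0.380 CPM in control OCI-AML3 cells, against 1.06 and 1.28 CPM in treated and 2.62 and 3.45 CPM in control MOLM13 cells. Its difference was 2.09 ± 0.33 (adjusted p = 0.00039). HOXA9, the leukemogenic member of the cluster, was at 66.4, 65.8 and 66.6 CPM in treated and 66.7, 65.5 and 62.4 CPM in control OCI-AML3 cells, so the groups overlapped, and at 29.0 and 26.3 CPM in treated and 35.9 and 37.8 CPM in control MOLM13 cells. Its difference was 0.45 ± 0.07 (adjusted p = 0.00027). HOXA13, at the 5′ end of the cluster, had a difference of -0.40 ± 0.08 (adjusted p = 0.0016), which was not called without control MOLM13 replicate 2 (-0.30) or with limma-voom (-0.31). HOXA3, at the 3′ side, had a difference of 0.97 ± 0.26, which was not called without treated MOLM13 replicate 1 (0.69) or control MOLM13 replicate 1 (0.83). HOXA10 had a difference of 0.25 ± 0.14, which was not called.

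**Figure D3:**
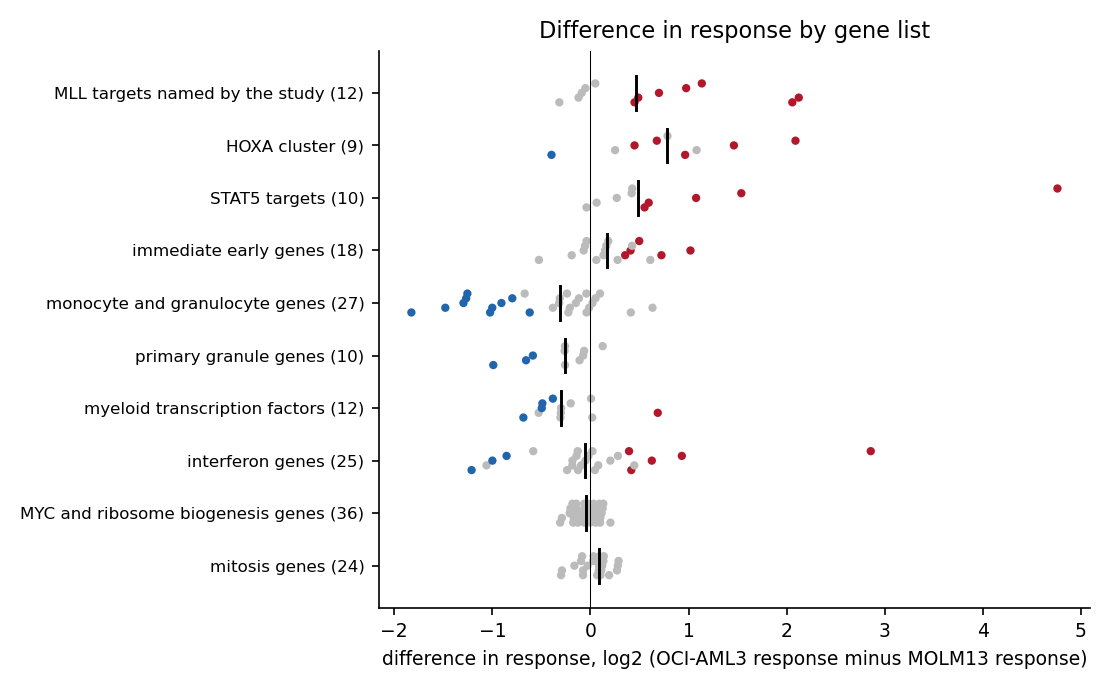
Difference in response (log2, OCI-AML3 response minus MOLM13 response, x axis) for the tested genes of selected lists, with each gene a point (red called higher, blue called lower, grey not called), the list median a bar and the number tested in brackets. The MLL target and HOXA lists have medians of 0.47 and 0.79, and the monocyte and granulocyte list has a median of -0.31.

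Among genes of mature monocytes and granulocytes measured in both lines, the called differences were all lower in the OCI-AML3 response. Of 27 tested, 8 rose and 2 fell in OCI-AML3 cells, 16 rose and 0 fell in MOLM13 cells, and the difference was called higher for 0 and lower for 10. The median was -0.31 for the difference, 0.03 in OCI-AML3 and 0.45 in MOLM13 cells. The number called lower was 9 to 12 across the other settings. The 10 genes were CSF1R, CX3CR1, TREM1, CYBB, ANXA1, CCR2, S100A8, MNDA, S100A9 and TLR4. A further 7 genes of the list had enough reads in OCI-AML3 cells alone, and 3 of them rose and 0 fell there. Another 1 had enough reads in MOLM13 cells alone and rose. Among all genes with enough reads in 1 line alone, 500 of 3407 rose and 231 fell in OCI-AML3 cells. In MOLM13 cells 67 of 507 rose and 57 fell.

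CSF1R, the receptor for macrophage colony-stimulating factor, moved in opposite directions. It was at 5.11, 5.16 and 5.16 CPM in treated and 8.15, 8.25 and 9.31 CPM in control OCI-AML3 cells, and at 20.0 and 21.4 CPM in treated and 10.5 and 9.08 CPM in control MOLM13 cells. The control ranges of the lines met, and the treated ranges lay far apart. CSF1R fell by 0.74 in OCI-AML3 cells and rose by 1.09 ± 0.09 in MOLM13 cells, a difference of -1.83 ± 0.12 (95% interval -2.08 to -1.57, adjusted p = 3.3e-08). S100A9, one of the calprotectin subunits, was the other gene of the list with opposite calls, at 57.9, 57.6 and 56.8 CPM in treated and 75.1, 72.2 and 72.6 CPM in control OCI-AML3 cells, against 11.5 and 11.8 CPM in treated and 8.37 and 8.70 CPM in control MOLM13 cells (difference -0.80 ± 0.08, adjusted p = 5.7e-06). Its partner S100A8 had a difference of -1.0 ± 0.24, which was not called without control MOLM13 replicate 1 (-0.77).

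CX3CR1, the fractalkine receptor of monocytes, rose in both lines. It was at 12.6, 13.5 and 13.5 CPM in treated and 9.30, 8.89 and 9.44 CPM in control OCI-AML3 cells, and at 8.95 and 10.2 CPM in treated and 2.72 and 2.08 CPM in control MOLM13 cells. The rise was 0.52 ± 0.06 in OCI-AML3 and 2.00 ± 0.14 in MOLM13 cells (difference -1.48 ± 0.16, adjusted p = 7.7e-06). ANXA1, annexin A1, also rose in both, by 0.78 in OCI-AML3 and by 2.03 in MOLM13 cells. TLR4, the lipopolysaccharide receptor, rose by 0.64 in OCI-AML3 and by 1.26 in MOLM13 cells.

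CYBB, the catalytic subunit of the phagocyte oxidase, was at 337, 343 and 345 CPM in treated and 314, 342 and 338 CPM in control OCI-AML3 cells, and at 26.4 and 27.4 CPM in treated and 10.2 and 11.4 CPM in control MOLM13 cells. OCI-AML3 groups overlapped at a level far above that of MOLM13 cells, whose groups did not overlap (difference -1.27 ± 0.08, adjusted p = 3.9e-08). MNDA, a nuclear antigen of myeloid cells, was likewise at 210, 207 and 209 CPM in treated and 236, 235 and 232 CPM in control OCI-AML3 cells, and at 64.4 and 66.0 CPM in treated and 39.2 and 38.9 CPM in control MOLM13 cells. CCR2, the chemokine receptor of classical monocytes, was at 30.5, 30.1 and 31.3 CPM in treated and 38.1, 37.7 and 37.3 CPM in control OCI-AML3 cells. Its level was higher in MOLM13 cells, at 132 and 128 CPM in treated and 76.5 and 81.1 CPM in control cells. The part of starting levels in these differences was not tested. LYZ, lysozyme, was at 218, 220 and 214 CPM in treated and 224, 237 and 230 CPM in control OCI-AML3 cells, and at 428 and 402 CPM in treated and 215 and 228 CPM in control MOLM13 cells. The control levels of LYZ overlapped between the lines, and its difference was -0.99 ± 0.05 (adjusted p = 1.7e-09).

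Some maturation markers responded alike. ITGAM, the integrin CD11b, rose by 1.26 ± 0.11 in OCI-AML3 and by 1.17 ± 0.13 in MOLM13 cells, and the 95% interval of the difference ran from -0.28 to 0.45. It was at 3.14, 3.51 and 3.05 CPM in treated and 1.33, 1.4 and 1.32 CPM in control OCI-AML3 cells, and at 8.12 and 8.49 CPM in treated and 3.38 and 3.97 CPM in control MOLM13 cells. CD86, a co-stimulatory ligand, rose by 1.17 ± 0.11 in OCI-AML3 and by 1.04 ± 0.11 in MOLM13 cells, with an interval of -0.21 to 0.45. CD14, the monocyte co-receptor for lipopolysaccharide, had enough reads in OCI-AML3 cells alone, where it rose by 0.63 ± 0.06 and was at 16.0, 15.7 and 16.1 CPM in treated and 10.3, 11.0 and 9.49 CPM in control cells.

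**Figure D4:**
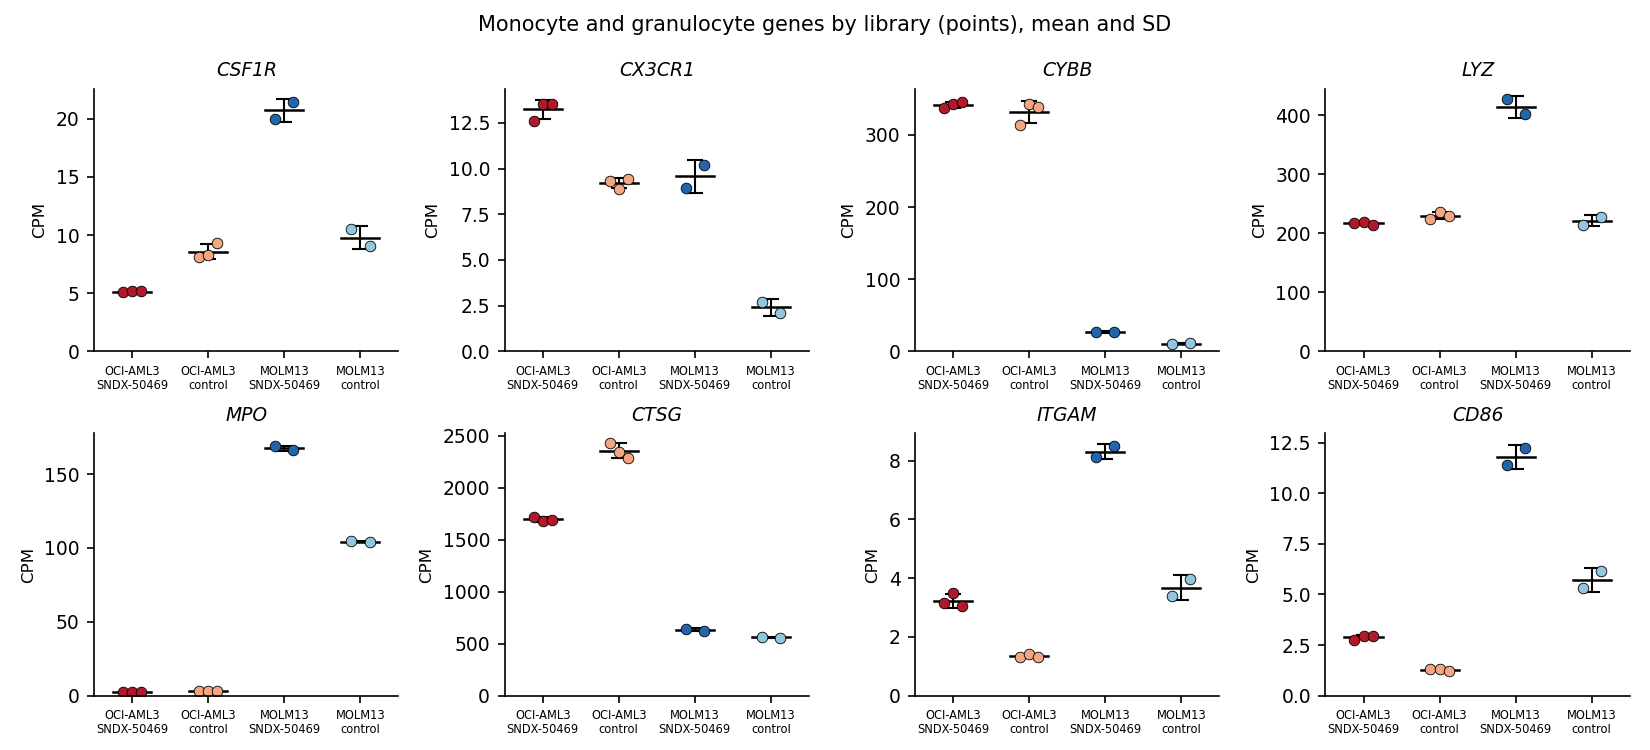
Levels in CPM (y axis, from 0) of monocyte and granulocyte genes by library, as points with the group mean and SD, for treated and control OCI-AML3 cells (n = 3 each) and treated and control MOLM13 cells (n = 2 each). CSF1R was lower in treated than in control OCI-AML3 cells and higher in treated than in control MOLM13 cells, and ITGAM was higher in the treated cells of both.

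Some primary granule genes, which mark promyelocytes, fell in OCI-AML3 cells. Of 10 tested, 0 rose, 5 fell and 5 were not called in OCI-AML3, 1 rose and 1 fell in MOLM13 cells, and the difference was called higher for 0 and lower for 3, with a median of -0.26. CTSG, cathepsin G, was at 1721, 1676 and 1693 CPM in treated and 2432, 2349 and 2291 CPM in control OCI-AML3 cells, and at 646 and 627 CPM in treated and 566 and 556 CPM in control MOLM13 cells (difference -0.66 ± 0.04, adjusted p = 6.8e-09). PRTN3, proteinase 3, was at 723, 696 and 709 CPM in treated and 1209, 1150 and 1134 CPM in control OCI-AML3 cells, and at 8829 and 8948 CPM in treated and 9863 and 9560 CPM in control MOLM13 cells (difference -0.59 ± 0.04, adjusted p = 2.2e-08). MPO, myeloperoxidase, was low in OCI-AML3 cells at 2.39, 2.68 and 2.41 CPM in treated and 3.05, 2.94 and 3.24 CPM in control cells, and high in MOLM13 cells at 169 and 166 CPM in treated and 105 and 104 CPM in control cells. It rose by 0.68 in MOLM13 cells and its difference was -0.99 ± 0.09.

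Of 12 myeloid transcription factors, 1 rose and 5 fell in OCI-AML3 cells, and 2 rose and 1 fell in MOLM13 cells. The difference was called higher for 1 and lower for 4, with a median of -0.30. IRF8, which directs monocyte and dendritic cell fate, was at 595, 603 and 608 CPM in treated and 1007, 1016 and 996 CPM in control OCI-AML3 cells, and at 363 and 369 CPM in treated and 467 and 470 CPM in control MOLM13 cells (difference -0.38 ± 0.03, adjusted p = 5.4e-07). KLF4, a monocyte factor, had a difference of -0.49 ± 0.10 and BCL6, a transcriptional repressor, one of -0.68 ± 0.15. BCL6 was not called with all 18 libraries in the fit (-0.68). CEBPA had a difference of -0.50 ± 0.15, which was not called without control OCI-AML3 replicate 1 (-0.30) or without any 1 of the MOLM13 libraries (-0.51 to -0.49). Nor was CEBPA called by DESeq2 (-0.49) or with all 18 libraries in the fit (-0.50). ID2, an inhibitor of basic helix-loop-helix factors, rose by 0.41 in OCI-AML3 cells and had a value of -0.28 in MOLM13 cells (difference 0.69 ± 0.08, adjusted p = 2.2e-05). Among progenitor genes, GATA2 was at 9.79, 10.5 and 10.8 CPM in treated and 4.04, 3.66 and 3.85 CPM in control OCI-AML3 cells, and at 58.7 and 58.6 CPM in treated and 55.6 and 59.3 CPM in control MOLM13 cells. GATA2 was the 1 of 5 tested genes of that list called for a difference (1.4 ± 0.08, adjusted p = 1.5e-08).

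The largest positive differences came from genes at a low level in control OCI-AML3 cells. HES7, a HES family repressor, was at 1.28, 0.863 and 1.09 CPM in treated and 0, 0.0389 and 0 CPM in control OCI-AML3 cells, that is 184 against 2 reads over the 3 libraries of each group, a ratio of 87.3 with a 95% counting interval of 23.8 to 726. It was at 2.48 and 2.33 CPM in treated and 3.08 and 2.84 CPM in control MOLM13 cells. The treated OCI-AML3 level thus stayed below that of MOLM13 cells. The fitted difference of 6.44 ± 0.56 rests on those 2 control reads and on the prior count of the model.

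CCND2, cyclin D2, was at 1.97, 2.43 and 1.85 CPM in treated and 0.0396, 0.136 and 0.0827 CPM in control OCI-AML3 cells, against 117 and 123 CPM in treated and 134 and 144 CPM in control MOLM13 cells. Its difference of 4.76 ± 0.26 thus joined lines whose levels remained over an order of magnitude apart. TBX1, a T-box factor of pharyngeal development, was at 13.8, 12.6 and 12.3 CPM in treated and 1.21, 0.856 and 0.843 CPM in control OCI-AML3 cells, and at 2.11 and 1.72 CPM in treated and 1.87 and 2.41 CPM in control MOLM13 cells (difference 3.91 ± 0.29, adjusted p = 1.4e-07). MISP3 (4.66), SMPD5 (3.80) and TRIM7 (3.61) also rose in OCI-AML3 cells alone. HES7, CCND2, MISP3 and SMPD5 had too few control OCI-AML3 reads to pass the filter there without the treated libraries. Their rise is therefore not independent of the filter.

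NOTUM, a secreted enzyme that inactivates Wnt ligands, had the largest positive difference among genes with opposite calls. It was at 16.5, 16.6 and 16.3 CPM in treated and 1.69, 1.61 and 2.03 CPM in control OCI-AML3 cells, and at 2.43 and 2.95 CPM in treated and 4.13 and 5.53 CPM in control MOLM13 cells (difference 4.05 ± 0.20, adjusted p = 1.7e-09). HIC1, a zinc-finger repressor, was at 5.99, 6.17 and 6.68 CPM in treated and 1.53, 1.23 and 1.26 CPM in control OCI-AML3 cells, against 6.65 and 6.86 CPM in treated and 10.2 and 11.9 CPM in control MOLM13 cells. The treated levels of HIC1 in the 2 lines lay closer together than the control levels. SOX18 (2.73 ± 0.23), PDGFA, a platelet-derived growth factor chain (2.36 ± 0.16), and DUSP9, a phosphatase of MAP kinases (2.26 ± 0.34), also rose in OCI-AML3 and fell in MOLM13 cells. NRARP, a feedback regulator of Notch signalling chosen after its values were seen, did the same (2.07 ± 0.18).

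Among the largest negative differences were genes that rose in MOLM13 cells and were at a higher level in OCI-AML3 cells with or without treatment. SERPINB10, a serine protease inhibitor of myeloid cells, was at 6.6, 6.15 and 6.99 CPM in treated and 6.94, 7.43 and 7.44 CPM in control OCI-AML3 cells, and at 2.75 and 3.56 CPM in treated and 0.454 and 0.567 CPM in control MOLM13 cells (difference -2.77 ± 0.28, adjusted p = 3.8e-06). Its control MOLM13 libraries held 9 and 12 reads, too few to pass the filter in that line without the treated libraries. Its rise is therefore not independent of the filter. ANKRD22 was at 5.76, 5.30 and 5.06 CPM in treated and 5.85, 5.66 and 5.52 CPM in control OCI-AML3 cells, and at 1.19 and 1.32 CPM in treated and 0.202 and 0.189 CPM in control MOLM13 cells. Its control MOLM13 libraries held 4 and 4 reads, so it passed the filter in that line through treated libraries alone. ABCA1, the cholesterol exporter (-1.69 ± 0.29), and MMP9, a gelatinase (-1.55 ± 0.28), had the same form. SESN3, a sestrin, fell in OCI-AML3 cells to 65.7, 66.6 and 71.0 CPM, against 97.7, 109 and 110 CPM in control cells, and rose in MOLM13 cells to 1.61 and 1.54 CPM, against 0.706 and 0.662 CPM in control cells (difference -1.84 ± 0.34, adjusted p = 0.0012). TMOD2 (-1.53 ± 0.43) was not called without treated MOLM13 replicate 1 (-1.30) or control MOLM13 replicate 2 (-0.93), or with all 18 libraries in the fit (-1.53). With 11 and 4 reads in control MOLM13 libraries, TMOD2 also passed the filter in that line only with the treated libraries. WDR88 (-1.51 ± 0.42) was not called without treated MOLM13 replicate 2 (-1.01) or either MOLM13 control (-1.43 and -1.60).

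In the opposite direction, DYNC1I1, a dynein intermediate chain, fell in MOLM13 cells to 0.688 and 0.616 CPM, against 7.21 and 6.53 CPM in control cells. It was at 1.65, 1.74 and 1.66 CPM in treated and 1.57, 1.58 and 1.31 CPM in control OCI-AML3 cells (difference 3.58 ± 0.24, adjusted p = 4.6e-08). Genes that rose in both lines but more in OCI-AML3 cells included TPPP, a microtubule-binding protein (difference 1.03 ± 0.16), TUBA1A, an alpha-tubulin (0.81 ± 0.07), the kinase PIM1 (0.59 ± 0.09) and the adhesion receptor ICAM1 (0.59 ± 0.13).

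Several of the genes that rose in OCI-AML3 cells alone were neighbours. A run of 8 adjacent tested genes on chromosome 1, spanning 139 kb from LINC02593 to AGRN (916818 to 1056116, GRCh38), was called higher in the difference at every gene. All 8 were called up in OCI-AML3 cells and 0 were called in MOLM13 cells, and each kept its call under all 20 other settings. Along the chromosome the differences were 3.97 for LINC02593, 4.72 for SAMD11, 0.67 for NOC2L, 1.16 for KLHL17, 2.96 for PLEKHN1, 4.30 for HES4, 2.86 for ISG15 and 2.57 for AGRN. NOC2L, KLHL17, PLEKHN1 and AGRN were chosen after their values were seen, for their place in the run. The tested genes on either side, LINC01128 (0.34 ± 0.13) and C1orf159 (0.25 ± 0.08), were not called, though C1orf159 was without treated MOLM13 replicate 2 (0.33). SAMD11 and NOC2L overlap in the annotation, and their shared reads cannot be told apart without strand. PERM1, which lies inside the run, was chosen after its values were seen. It had enough reads in OCI-AML3 cells alone and rose there by 3.28 ± 0.19. Its control OCI-AML3 levels of 0.139, 0.214 and 0.265 CPM were too low to pass the filter without the treated libraries. The rise of PERM1 is therefore not independent of the filter.

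AGRN, the proteoglycan agrin, carried the most reads of the strongly changed genes in the run, at 232, 235 and 237 CPM in treated and 40.4, 42.3 and 42.5 CPM in control OCI-AML3 cells. It was at 57.5 and 58.7 CPM in treated and 60.6 and 62.3 CPM in control MOLM13 cells (difference 2.57 ± 0.05, adjusted p = 2.6e-14). SAMD11 was at 22.9, 20.7 and 21.0 CPM in treated and 1.13, 1.03 and 0.909 CPM in control OCI-AML3 cells, and at 1.38 and 1.36 CPM in treated and 1.56 and 1.84 CPM in control MOLM13 cells. HES4, a HES family repressor, was at 14.8, 15.5 and 14.0 CPM in treated and 1.63, 1.21 and 1.12 CPM in control OCI-AML3 cells, and at 0.642 and 0.748 CPM in treated and 1.41 and 1.04 CPM in control MOLM13 cells. ISG15, a ubiquitin-like protein induced by interferon, was at 31.1, 30.2 and 32.2 CPM in treated and 5.04, 4.67 and 4.79 CPM in control OCI-AML3 cells, against 11.5 and 10.03 CPM in treated and 13.2 and 11.1 CPM in control MOLM13 cells. In each of these 4 genes the treated and control OCI-AML3 libraries were far apart.

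Because ISG15 is usually read as an interferon gene and HES4 as a Notch-related gene, promoter sequences of 300 bases (250 upstream to 50 downstream of the start) were taken from RefSeq (GRCh38) to show what motifs they hold. Promoters were found for 7 of the 8 genes of the run. The interferon-stimulated response element was searched as GAAA, any 2 bases, then GAAA, and the RBPJ motif of Notch targets as TGGGAA, both on both strands. Capitals mark the matches in ISG15 (chromosome 1, 1013247 to 1013546, plus strand), where 2 overlapping matches of the response element form one stretch, and in HES4 (1000048 to 1000347, minus strand), where TGGGAA is found 1 time. SAMD11 (925481 to 925780, plus strand) is shown as a strongly changed neighbour with neither set of letters.
ISG15: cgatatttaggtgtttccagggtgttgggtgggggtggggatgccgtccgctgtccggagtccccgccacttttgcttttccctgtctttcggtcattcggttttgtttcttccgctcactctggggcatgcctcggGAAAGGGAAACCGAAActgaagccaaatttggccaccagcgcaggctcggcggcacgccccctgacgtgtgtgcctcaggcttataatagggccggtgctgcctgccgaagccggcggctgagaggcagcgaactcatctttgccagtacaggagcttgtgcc
HES4: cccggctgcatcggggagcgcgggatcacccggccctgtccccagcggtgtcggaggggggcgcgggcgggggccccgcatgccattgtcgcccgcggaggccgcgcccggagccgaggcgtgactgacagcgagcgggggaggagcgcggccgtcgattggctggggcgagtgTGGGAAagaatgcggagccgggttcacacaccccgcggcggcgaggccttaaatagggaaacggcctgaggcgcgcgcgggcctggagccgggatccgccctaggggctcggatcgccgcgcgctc
SAMD11: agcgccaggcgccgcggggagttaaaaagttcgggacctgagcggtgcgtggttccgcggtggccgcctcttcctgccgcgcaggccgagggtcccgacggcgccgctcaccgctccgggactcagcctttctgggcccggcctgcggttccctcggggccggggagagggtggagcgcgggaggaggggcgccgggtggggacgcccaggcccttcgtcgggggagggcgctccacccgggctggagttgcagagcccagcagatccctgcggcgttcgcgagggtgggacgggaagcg
The response element occurred in 3.81% and TGGGAA in 24.6% of 22114 promoters of the same length. Of the 7 promoters of the run, 1 held the first and 1 held the second. Outside the run, the promoters of HES7 and NRARP held 0 matches of TGGGAA, and that of HES1, another HES family gene, held 2. A match is only a description of the letters in this window.

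**Figure D5:**
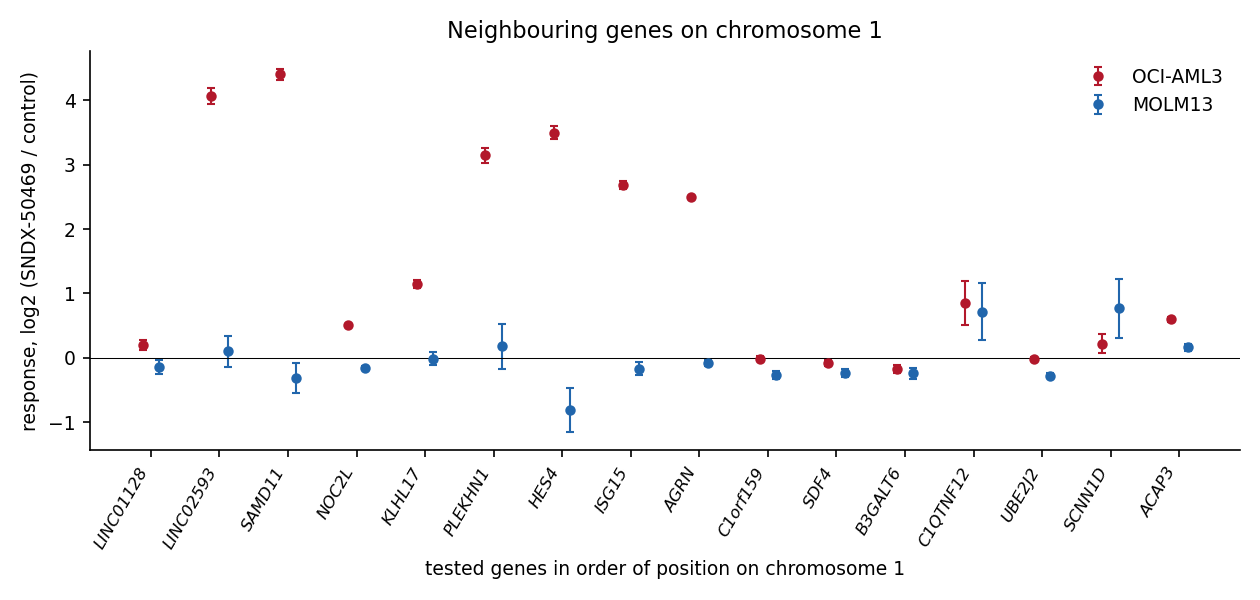
Response to SNDX-50469 (log2 fold change, y axis) of the tested genes around the run on chromosome 1, in order of position (x axis), for OCI-AML3 (red) and MOLM13 cells (blue), with bars of 1 SE. From LINC02593 to AGRN the OCI-AML3 values lie between 0.51 and 4.40, all called, while no MOLM13 value was called.

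Runs of this length were otherwise absent. Among genes called higher, 539 stood alone in their order along the chromosome, 62 runs held 2 genes, 9 held 3, 3 held 4, 1 held 5 and 1 held 8. Among genes called lower, the longest of the runs held 3 genes. CBX8 and CBX2, chromodomain subunits of PRC1 chosen after their values were seen, also rose in OCI-AML3 cells without a call in MOLM13 cells. CBX8 was at 71.4, 71.9 and 70.3 CPM in treated and 25.7, 23.2 and 24.2 CPM in control OCI-AML3 cells, and at 34.5 and 36.5 CPM in treated and 39.3 and 38.7 CPM in control MOLM13 cells (difference 1.68 ± 0.07, adjusted p = 2.5e-10). CBX2 had a difference of 1.28 ± 0.06.

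Genes that rose in OCI-AML3 cells alone had GC-rich transcripts and low starting levels. Their median transcript GC content was 58.2% (231 of 233 genes matched), and that of the genes up in OCI-AML3 and down in MOLM13 cells was 56.1%, beside 48.4% over all tested genes (13082 matched). Genes that rose in MOLM13 cells alone had a median of 49.0%. The median control level in OCI-AML3 cells was 4.76 CPM for genes that rose there alone, beside 26 CPM for all tested genes. Genes that rose in MOLM13 cells alone also started low, with a median control level of 8.28 CPM in MOLM13 cells, beside 24.5 CPM for all tested genes. The share of genes called higher for the difference was 3.97% in the lowest of 10 equal bins of GC content and 12.8% in the highest, while the share called lower was 3.74% and 4.43%. In the same bins, 5.42% and 12.9% were called up and 1.76% and 5.42% down in OCI-AML3 cells. In MOLM13 cells, 8.02% and 7.18% were called up and 5.65% and 9.47% down. Libraries can differ in how they recover GC-rich RNA, and the part of GC content in the calls was not tested.

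Genes measured in 1 line could not be compared. The OCI-AML3 libraries were deeper, and the part of depth in the number of such genes was not tested. Of 3407 genes with enough reads in OCI-AML3 cells alone, 500 rose and 231 fell. They included the growth factor gene IGF2, at 3.62, 3.15 and 3.29 CPM in treated and 0.0396, 0.0389 and 0.0661 CPM in control OCI-AML3 cells and 0 in all MOLM13 libraries. Its control OCI-AML3 libraries held 2, 2 and 4 reads, so IGF2 passed the read filter through treated libraries alone. Its rise is therefore not independent of the filter. The neurotrophin receptor NGFR was at 9.63, 9.27 and 10.3 CPM in treated and 0.575, 0.506 and 0.761 CPM in control OCI-AML3 cells. B3GNT7, a glycosyltransferase, fell by 1.66, the largest fall there among genes of at least 1 CPM. Of 507 genes with enough reads in MOLM13 cells alone, 67 rose and 57 fell. ZNF521, a zinc-finger factor of progenitors and known MLL fusion target, was at 24.8 and 23.8 CPM in treated and 98.2 and 103 CPM in control MOLM13 cells, and at most 0.104 CPM in OCI-AML3 libraries. SIGLEC6, a sialic acid receptor, rose there to 7.43 and 8.58 CPM, against 1.87 and 2.22 CPM in control cells, and LSP1, a leukocyte actin-binding protein, to 17.3 and 17.6 CPM, against 5.14 and 6.62 CPM in control cells.

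Genes of STAT5 signalling, a pathway that mutant FLT3 is known to activate, were called for a difference in part. Of 10 tested, 3 rose and 1 fell in OCI-AML3, 1 rose and 2 fell in MOLM13 cells, and the difference was called higher for 5 and lower for 0, with 3 to 5 called higher across the other settings. The median difference was 0.49. Over all tested genes, 5.56% were called higher and 4.57% lower for the difference. SOCS2, a feedback inhibitor of cytokine receptors, was at 0.656, 0.775 and 0.519 CPM in treated and 1.01, 1.30 and 1.29 CPM in control OCI-AML3 cells, and at 6.93 and 6.99 CPM in treated and 35.1 and 39.8 CPM in control MOLM13 cells (difference 1.54 ± 0.22, adjusted p = 0.00015). CISH, another member of that inhibitor family, had a difference of 0.27 ± 0.07, under the limit. Besides CCND2 and PIM1, SOCS1 (1.08 ± 0.29) and SOCS3 (0.55 ± 0.18) were called. CCND2 passed the filter in OCI-AML3 cells only through the treated libraries, so its part in the count is not independent of the filter. SOCS1 was not called without treated OCI-AML3 replicate 2 (0.93), and SOCS3 lost its call under 13 of the other settings.

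Of 18 immediate early genes, 1 rose and 1 fell in OCI-AML3, 1 rose and 6 fell in MOLM13 cells, and the difference was called higher for 5 and lower for 0, with 3 to 6 called higher across the other settings. The median difference was 0.17. Over all tested genes, 5.56% were called higher and 4.57% lower for the difference. EGR1, a growth-factor-induced zinc-finger factor, was at 25.6, 27.6 and 25.9 CPM in treated and 34.8, 34.4 and 31.6 CPM in control OCI-AML3 cells, and at 5.41 and 4.13 CPM in treated and 11.5 and 13.0 CPM in control MOLM13 cells (difference 1.02 ± 0.14, adjusted p = 0.00013). Among 13 feedback genes of the ERK pathway, the difference was called higher for 2 and lower for 2. CCND1, cyclin D1, was higher (0.83 ± 0.09), and DUSP6, a phosphatase of ERK, was lower (-0.43 ± 0.10).

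Among interferon genes measured in both lines, the called differences ran in both directions. Of 25 tested, 10 rose and 0 fell in OCI-AML3, 11 rose and 1 fell in MOLM13 cells, and the difference was called higher for 5 and lower for 3, with a median of -0.05. Over all tested genes, 5.56% were called higher and 4.57% lower for the difference. A further 11 interferon genes had enough reads in OCI-AML3 cells alone, and 7 of them rose and 0 fell there. Of all 3407 genes with enough reads in OCI-AML3 cells alone, 500 rose and 231 fell. OAS3, an antiviral oligoadenylate synthetase, was at 10.4, 11.3 and 11.2 CPM in treated and 3.39, 3.74 and 4.08 CPM in control OCI-AML3 cells, and at most 0.352 CPM in MOLM13 libraries. IFIT1, which binds viral RNA, rose by 1.37 ± 0.14 in OCI-AML3 cells. Beside ISG15, the genes called higher included IRF7, at 11.7, 10.8 and 10.9 CPM in treated and 7.59, 6.98 and 7.57 CPM in control OCI-AML3 cells and at 11.7 and 10.3 CPM in treated and 11.5 and 11.0 CPM in control MOLM13 cells. USP18, the protease that removes ISG15 from proteins, had a difference of 0.93 ± 0.21. MX2, an antiviral GTPase, was at 102, 101 and 104 CPM in treated and 98.8, 98.7 and 98.3 CPM in control OCI-AML3 cells, and at 11.3 and 12 CPM in treated and 4.74 and 6.43 CPM in control MOLM13 cells (difference -1.0 ± 0.11). The other called genes, PARP9, IFI35, IFI6 and IRF9, each lost the call under 5 or more of the other settings.

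Few growth and cell cycle genes were called for a difference, beside 5.56% called higher and 4.57% called lower over all tested genes. Of 36 genes of MYC and ribosome biogenesis, 4 fell in OCI-AML3 and 7 in MOLM13 cells, 0 rose in either, and 0 were called for a difference by edgeR, with a median of -0.04. At an unadjusted p below 0.05, 15 of the 36 differed, DESeq2 called 0 and limma-voom called 2 lower. MYC was at 426, 431 and 436 CPM in treated and 546, 551 and 545 CPM in control OCI-AML3 cells, and at 1342 and 1347 CPM in treated and 1683 and 1759 CPM in control MOLM13 cells. It fell by 0.34 in OCI-AML3 and by 0.36 in MOLM13 cells, and the 95% interval of the difference was -0.06 to 0.08. Of 24 mitosis genes, 0 were called for a difference by edgeR, DESeq2 or limma-voom and 13 differed at an unadjusted p below 0.05. Of 25 S phase genes, E2F1 was called (0.34 ± 0.06), though not without treated MOLM13 replicate 2 (0.29) or control MOLM13 replicate 2 (0.31). It also lost its call with limma-voom (0.316), upper-quartile factors (0.318) and all 18 libraries in the fit (0.34).

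BCL2, the apoptosis inhibitor targeted by venetoclax, was at 70.9, 75.5 and 77.0 CPM in treated and 137, 139 and 140 CPM in control OCI-AML3 cells, and at 160 and 155 CPM in treated and 157 and 169 CPM in control MOLM13 cells. It fell by 0.89 in OCI-AML3 cells, and its difference was -0.84 ± 0.06 (adjusted p = 3.9e-08). MCL1, another inhibitor of the family, had a difference of 0.03 with an interval of -0.05 to 0.11. CDKN1A, the CDK inhibitor p21, was at 86.6, 86.1 and 86.2 CPM in treated and 63.7, 65.8 and 64.6 CPM in control OCI-AML3 cells, and at 119 and 127 CPM in treated and 148 and 151 CPM in control MOLM13 cells. The OCI-AML3 rise of 0.42 was called and the MOLM13 value of -0.28 was not (difference 0.70 ± 0.05, adjusted p = 5.9e-08). Of the 19 p53 target genes tested, the difference was called higher for 2 and lower for 1, beside 5.56% and 4.57% of all tested genes.

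Of 20 genes of the Menin and MLL complexes, 1 rose and 0 fell in OCI-AML3, 3 rose and 0 fell in MOLM13 cells, and the difference was called higher for 2 and lower for 1, with a median of -0.01. Over all tested genes, 5.56% were called higher and 4.57% lower for the difference. DPY30, a shared subunit of the MLL family complexes, was at 35.4, 34.8 and 34.2 CPM in treated and 34.3, 32.3 and 31.7 CPM in control OCI-AML3 cells, and at 23.8 and 23.9 CPM in treated and 29.3 and 29.9 CPM in control MOLM13 cells (difference 0.40 ± 0.07, adjusted p = 0.00083). MLLT3, which encodes AF9, rose by 0.44 in OCI-AML3 cells (difference 0.47 ± 0.11), and was not called without control MOLM13 replicate 2 (0.37) or with all 18 libraries in the fit (0.47). KMT2D, another methyltransferase of the family, had a difference of -0.34 ± 0.12 that lost its call under 11 of the other settings, 7 of them fits without a single library (-0.37 to -0.25). MEN1, which encodes Menin, was at 112, 110 and 111 CPM in treated and 115, 109 and 108 CPM in control OCI-AML3 cells, and at 142 and 148 CPM in treated and 142 and 149 CPM in control MOLM13 cells. Its difference was 0.01, with an interval of -0.10 to 0.12. KMT2A had a difference of -0.12 (-0.39 to 0.14) and NPM1 one of -0.06 (-0.13 to 0.00), and neither was called. MOLM13 cells make the MLL-AF9 fusion, and counts per gene cannot separate its reads from those of unrearranged MLLT3 and KMT2A.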

How the data were processed

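RNA-seq of OCI-AML3 and MOLM13 cells was deposited as counts, 1 whole number per gene and sample, neither scaled nor pooled by the authors. The submitters' processing notes name STAR and hg38; counter, annotation release and strand setting were not given in the sources used here, and the study describes another aligner. Counts were analysed with edgeR 4.0.16 (limma 3.58.1, R 4.3.3): genes passing filterByExpr in both lines, TMM scaling, quasi-likelihood fit of 4 group means over 10 libraries, Benjamini-Hochberg adjustment over 13204 genes. A call needs an adjusted p below 0.05 and a log2 size of at least 0.32. CPM values are TMM-scaled, and intervals on counts cover counting error only. Similar responses have a 95% interval inside 1.5-fold. Scripts were tested on simulated data. RefSeq positions and promoters were matched by symbol.

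Members and lists were chosen with earlier results of these data known. The genes named are members of the lists, the 10 highest and 10 lowest differences, the 5 largest of each pattern, the 5 highest and 5 lowest similar responses and responses measured in 1 line, with a symbol and at least 1 CPM, except where the text says otherwise. DESeq2 1.42.0, limma-voom, other scalings, filters and fold limits, thinned counts, a replicate block, all 18 libraries and leave-one-out fits served as alternatives. The other libraries of the series enter no comparison.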

Additional observations from a re-analysis of the deposited data

Results flagged for a closer look

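The responses of the lines under the same contrast differed by edgeR's test of the difference itself for 1337 genes, and in 78 of them the lines moved in opposite directions, each with its own call. Of those, the genes named above that were higher in OCI-AML3 and lower in MOLM13 cells had differences of 4.05 (NOTUM), 2.95 (HIC1), 2.73 (SOX18), 2.36 (PDGFA), 2.26 (DUSP9), 2.09 (HOXA7), 2.07 (NRARP) and 1.46 (HOXA5). Those lower in OCI-AML3 and higher in MOLM13 cells had differences of -0.80 (S100A9), -1.83 (CSF1R) and -1.84 (SESN3). All values are log2, and with 2 or 3 libraries a group no rule for an outlying library was applied.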

How the results depend on the processing

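No called difference of a named gene reversed its direction. Over 561 genes and the alternatives other than the fold limits, 10860 of 11216 values kept their call or lack of one, 123 gained a call and 233 lost it. Depth differed by line, and with the OCI-AML3 counts thinned 1207 of 12696 genes differed. DESeq2 gave 1195 and limma-voom 1208. With a single filter over the 10 libraries the OCI-AML3 response counted 2194 genes, and 2319 with no filter. With all 18 libraries in the fit the difference counted 733 genes, 19 of them larger in MOLM13, 284 in MOLM13 alone and 119 in neither.

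With no fold limit the counts were 2880 (difference), 5631 (OCI-AML3) and 5008 (MOLM13), with 392 opposite, 102 larger in OCI-AML3, 407 larger in MOLM13, 777 in OCI-AML3 alone, 1130 in MOLM13 alone, 72 in neither and 1776 similar. With a 1.5-fold limit they were 630, 520 and 739, with 25, 2, 11, 179, 267, 146 and 40 in the same order.

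Leaving out 1 library gave 1078 to 1572 for the difference, 1364 to 1508 for OCI-AML3, 1533 to 1969 for MOLM13, 64 to 84 opposite, 10 to 18 larger in OCI-AML3 (10 without treated MOLM13 replicate 1), 26 to 42 larger in MOLM13, 290 to 378 in OCI-AML3 alone, 448 to 689 in MOLM13 alone, 222 to 361 in neither and 158 to 233 similar.

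With the replicate number as a block, the counts were 1370 for the difference, 1465 for OCI-AML3 and 1876 for MOLM13. Same-numbered libraries deviated together with correlations of 0.101, 0.009 and 0.038 in OCI-AML3 and -0.048 in MOLM13 cells, so the numbers were not taken as pairs, and not every library correlated best with its own number.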

Other observations

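MV4-11 cells, an AML line with the MLL-AF4 fusion, were treated with 1000 nM SNDX-50469 in the same series, so their dose differs and no comparison was made. MEIS1 was at 19.3 and 23.9 CPM in treated and 82.7 and 72.8 CPM in control MV4-11 cells, and MEF2C at 17.5 and 19.7 CPM in treated and 202 and 189 CPM in control cells. PBX3 was at 30.7 and 35.2 CPM in treated and 110 and 102 CPM in control cells. All 3 genes lay lower in both treated libraries than in either control. CSF1R was at 235 and 219 CPM in treated and 97.4 and 105 CPM in control cells, and CX3CR1 at 34.5 and 38 CPM in treated and 15.6 and 12.9 CPM in control cells, higher in both treated libraries. LYZ was at 1872 and 1762 CPM in treated and 1735 and 1799 CPM in control cells, so its groups overlapped. Of the genes of the run on chromosome 1, ISG15 was at 15 and 10.6 CPM in treated and 9.72 and 9.51 CPM in control cells, and AGRN at 194 and 204 CPM in treated and 119 and 172 CPM in control cells. SAMD11 was at 0.0347 and 0.228 CPM in treated and 0 and 0.124 CPM in control cells, and HES4 at 0.174 and 0 CPM in treated and 0.340 and 0.218 CPM in control cells, low in every library.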
